A study of Mus musculus with 6 samples.

Results

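The radial glia and astrocyte genes described here are Gfap, Aqp4, S100b, Slc1a2, Slc1a3, Fabp7, Glul, Nes, Vim and Prom1. These 10 genes, of 53110 in the deposited table, were picked by symbol with earlier results of these same data known, so their values in the Setd5+/- against WT comparison chose them and are given as a description with no test. The cells were primary neural stem cells (NSCs) from the embryonic mouse cortex, grown attached to Matrigel with bFGF and EGF at 21% oxygen. Of 6 samples, 3 were labelled WT and 3 were labelled Setd5+/-, which are heterozygous for a CRISPR-Cas9 mutation of Setd5, a gene for a chromatin-associated SET domain protein. The sample labels name no other allele or agent, and the groups shared the medium and the oxygen level. Whether the genomes of the groups differed at other places was not tested. The column names give the 3 WT samples the same index and lane, and the 3 Setd5+/- samples carry a single clone name, a second index and a second lane. That clone name is not used in the paper's text, so which clone was sequenced is not settled here.

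Radial glia are the neural stem cells of the developing cortex, and in late development many of them turn into astrocytes. The intermediate filament proteins nestin (Nes) and vimentin (Vim), the fatty acid binding protein Fabp7, also called BLBP, the glutamate transporter GLAST (Slc1a3) and the surface protein prominin 1 or CD133 (Prom1) are used as marks of radial glia and stem cells. GFAP, the water channel aquaporin 4 (Aqp4), the calcium-binding protein S100b, the glutamate transporter GLT-1 (Slc1a2) and glutamine synthetase (Glul) are used as marks of astrocytes, and several genes of each set are also active in the other cell type.

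Counted as read pairs, the 3 samples of each genotype differed by no more than sampling noise. Reads were divided by 2 to stand for pairs. This step was inferred in part from the spread of these same samples, so a value near 1 is no separate check. Read pairs of any 2 samples of a genotype gave a chi-square per degree of freedom of 0.958 to 0.981, and those of 2 samples of different genotypes gave 31.7 to 31.9. With the index and lane that they share, the 3 samples of a genotype were therefore counted as 1 library (n = 1 per genotype). The libraries had 30004634 reads on genes in WT and 21435546 in Setd5+/-. No replicate check of the genotype exists, and a difference of genotype cannot be told apart from one of clone, library, index or lane. Setd5 itself stood at 2676 normalized counts for WT and 2065 for Setd5+/-, a log2 ratio of -0.37 (95% counting interval -0.44 to -0.31), and reads over the whole gene do not separate its alleles. Of 4 factors of cortical progenitors, Emx2 (1025 and 500 reads), Lhx2 (1766 and 805) and Pax6 (1456 and 1334) were present in the WT and Setd5+/- libraries, while Emx1 had 2 and 0 reads. Hoxa5, a gene of the hindbrain and spinal cord, had 0 reads in WT and 488 in Setd5+/-, so the mutant library stands apart from its cortical label in this gene.

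The 250 bases before the RefSeq start were searched for 8 short motifs in the 9 members with an entry (GRCm38.p6), and 4 of these promoters are shown because they belong to the genes with clear differences each way. Gfap and S100b were higher and Slc1a2 and Fabp7 were lower in the Setd5+/- library. The search took the whole 250 bases, while the printed runs stop where an annotated exon begins (168 bases for Slc1a2 and 208 for Fabp7). They are read 5′ to 3′ on the strand of the gene, with motif matches in capitals. Gfap lies at chr11:102897201-102897450 on the minus strand, S100b at chr10:76253586-76253835, Slc1a2 at chr2:102706188-102706355 and Fabp7 at chr10:57784673-57784880, all 3 on the plus strand. The Gfap, Slc1a2 and Fabp7 starts used by RefSeq lie within the GENCODE genes, downstream of their outer ends. The Gfap and Slc1a2 windows do not reach those ends, so the sequence there was not searched.
Gfap: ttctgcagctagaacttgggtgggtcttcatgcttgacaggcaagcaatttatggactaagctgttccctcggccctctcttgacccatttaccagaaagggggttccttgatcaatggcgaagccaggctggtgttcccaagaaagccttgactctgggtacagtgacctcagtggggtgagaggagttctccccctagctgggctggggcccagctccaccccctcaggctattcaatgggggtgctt
S100b: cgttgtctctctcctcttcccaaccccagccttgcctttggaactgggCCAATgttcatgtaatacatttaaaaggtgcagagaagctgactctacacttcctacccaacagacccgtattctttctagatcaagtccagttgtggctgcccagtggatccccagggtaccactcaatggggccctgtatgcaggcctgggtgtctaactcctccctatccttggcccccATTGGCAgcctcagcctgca
Slc1a2: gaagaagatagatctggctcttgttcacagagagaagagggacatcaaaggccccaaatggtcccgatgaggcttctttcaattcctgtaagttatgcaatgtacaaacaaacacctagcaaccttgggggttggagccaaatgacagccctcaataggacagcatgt
Fabp7: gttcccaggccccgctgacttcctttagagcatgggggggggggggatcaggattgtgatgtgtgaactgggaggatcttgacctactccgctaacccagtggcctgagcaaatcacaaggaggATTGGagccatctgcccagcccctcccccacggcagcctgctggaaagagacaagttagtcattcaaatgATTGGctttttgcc

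The motifs were the TATA box (TATAAA), the CCAAT box (CCAAT), the GC box (GGGCGG), a STAT motif (TTCNNNGAA), an NFI motif (TTGGCA), an AP-1 motif (TGANTCA), a SOX motif (AACAAT) and an RBPJ motif (GTGGGAA), each on both strands. In S100b, the CCAAT box nearer to the start overlaps the NFI motif. A CCAAT box stood before S100b, Slc1a3, Fabp7, Glul, Vim and Prom1, and 33.8% of 32851 promoters, also searched over 250 bases, held it. A GC box stood before Slc1a3, Glul, Nes and Prom1, beside 32.7% of all promoters. A TATA box stood before Slc1a3 and Vim (12.4% of all promoters), an AP-1 motif before Prom1 (6.75%), an NFI motif before S100b (12.3%) and a STAT motif before Slc1a3 (7.02%). The SOX motif (9.42%) and the RBPJ motif (5.42%) stood before no member, and Gfap and Slc1a2 held no match of the 8. A match describes letters in this window and no more.

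The values below are normalized counts, which are reads on a gene divided by the size factor of the sample. A difference was called where it reached 2-fold, which is 1 on the log2 scale with a pseudocount of 1, and where the 95% counting interval of the ratio left out 1. All 10 members had a mean of at least 10 normalized counts over the 6 samples, the filter that 16266 genes passed. Of the members, 3 were called higher in Setd5+/- (Gfap, Aqp4, S100b), beside 10.2% of all tested genes, and 4 were called lower (Slc1a2, Fabp7, Glul, Prom1), beside 6.13% of all tested genes. The other 3, Slc1a3, Nes and Vim, stayed under 2-fold. The median log2 difference of the members was -0.14, beside -0.02 over all tested genes. The samples of the 2 libraries did not overlap in 4 members that were higher, beside 32.4% of all tested genes, and in 5 that were lower, beside 32.9%, and such a gap between parts of 1 library reflects counting depth only. Since the comparison chose the members, nothing is read from these counts. In bulk RNA, fewer cells of a type and less RNA per cell cannot be told apart.

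**Figure D1:**
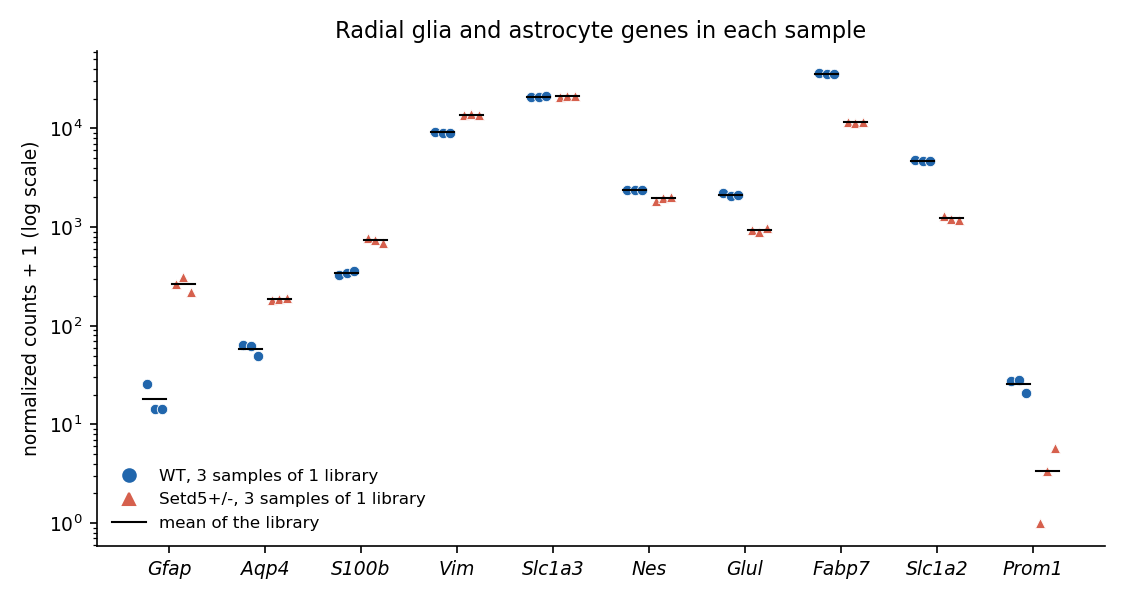
Normalized counts plus 1 (log axis) of the 10 genes in each of the 6 samples, with WT samples as circles, Setd5+/- samples as triangles and a bar at the mean of each library. Genes are ordered from the largest rise to the largest fall, and the samples of the 2 libraries overlap in Slc1a3, while 32.4% of all tested genes were higher and 32.9% lower without overlap.

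Gfap (ENSMUSG00000020932, chr11:102887336-102900912, minus strand), the intermediate filament protein most used to mark astrocytes, showed the largest relative rise of the 10 genes. The WT samples gave 24.9, 13.2 and 13.3 normalized counts, and the Setd5+/- samples gave 265, 308 and 217. Every Setd5+/- sample was above every WT sample, as in 32.4% of all tested genes, while 32.9% were lower without overlap. The samples of a genotype are parts of a single library. This gap, and those given for the genes below, therefore repeat the difference of the libraries and do not stand for replicates. The Setd5+/- library was 15.4-fold higher (95% counting interval 10.7 to 22.8), resting on 62 reads in WT and 663 in Setd5+/-. This was the 95th largest rise among the 16266 tested genes.

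Aqp4 (ENSMUSG00000024411, chr18:15389496-15410982, minus strand) carries water across the end-feet of astrocytes. Its WT samples gave 63.0, 62.0 and 48.0 normalized counts, against 184, 185 and 192 for Setd5+/-. The 2 libraries did not overlap, and Setd5+/- was 3.23-fold higher (2.57 to 4.10). S100b (ENSMUSG00000033208, chr10:76253853-76261159, plus strand) is a calcium-binding protein of astrocytes that also occurs in oligodendrocyte precursors. Its WT samples gave 324, 339 and 354 normalized counts, against 776, 748 and 686 for Setd5+/-. All Setd5+/- samples were again the higher ones. The S100b ratio of 2.17-fold (1.96 to 2.40) was the closest to the 2-fold line among the called members, and its counting interval reached below 2.

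The glutamate transporters, which clear glutamate from the space around cells, differed from each other. Slc1a2 (ENSMUSG00000005089, chr2:102658659-102790784, plus strand) gave 4732, 4678 and 4623 normalized counts as WT and 1291, 1200 and 1183 as Setd5+/-. The values did not overlap, and Setd5+/- was 3.82-fold lower (3.62 to 4.03). The antisense gene Gm13872, which shares 189 exonic bases with Slc1a2, was 2.85-fold lower (1.87 to 4.47). Slc1a3 (ENSMUSG00000005360, chr15:8634124-8710764, minus strand) gave 20843, 20961 and 21145 normalized counts as WT and 20824, 21303 and 21223 as Setd5+/-. Its samples overlapped between the libraries, and its ratio was 1.01 with a counting interval of 0.991 to 1.02. The sign of this small Slc1a3 difference turned with the scaling, from 0.01 on the log2 scale to -0.03 when scaled by total reads and -0.08 by the upper quartile. Per length, Slc1a3 was 6.90 times as high as Slc1a2 in the WT library and 26.5 times as high in the Setd5+/- library.

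Glul (ENSMUSG00000026473, chr1:153899944-153909723, plus strand) makes glutamine from glutamate and ammonia, the step that follows glutamate uptake in astrocytes. The WT values were 2193, 2082 and 2121 normalized counts, and the Setd5+/- values were 938, 887 and 968. All Setd5+/- samples lay under all WT samples, at 2.29-fold lower (2.15 to 2.44). Glul lies on chromosome 1, where the median log2 difference of 1044 tested genes was 0.53, while the medians of the other chromosomes ran from -0.15 to 0.02. Among those 1044 genes, 21 (Glul included) had a fall at least as large as Glul. Glul shares 96.8% identity over 1126 bases with the pseudogene Glns-ps1, which was 1.89-fold lower (1.69 to 2.13), and reads that match either copy could have been counted on one or the other. Glul exons also overlap Teddm2 on the opposite strand.

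Fabp7 (ENSMUSG00000019874, chr10:57784881-57788450, plus strand), a fatty acid binding protein of radial glia, had the highest level per length among the members in both libraries. The WT values were 36232, 35904 and 35911 normalized counts, and the Setd5+/- values were 11568, 11383 and 11518. The 2 libraries lay far apart with little spread inside each, and Setd5+/- was 3.13-fold lower (3.08 to 3.19). Fabp7 took 0.435% of all reads on genes in WT and 0.135% in Setd5+/-, and the 10 members together took 0.914% and 0.608%.

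Prom1 (ENSMUSG00000029086, chr5:43993620-44102032, minus strand) had few reads. Its WT samples gave 26.5, 27.3 and 19.9 normalized counts, against 0, 2.38 and 4.76 for Setd5+/-. The samples did not overlap, and the Setd5+/- library was 10.3-fold lower with a wide counting interval (3.37 to 50.1), since it rests on 89 reads in WT and 6 in Setd5+/-. Prom1 passed the filter only through its WT level. Its exons share 424 bases with the antisense gene Gm16401, which had 11 reads in WT and 2 in Setd5+/-, and whether the counting used strand is not given in the sources used here.

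The other intermediate filament members moved less than Gfap. Vim (ENSMUSG00000026728, chr2:13573927-13582826, plus strand) gave 9154, 9051 and 9081 normalized counts as WT and 13792, 13891 and 13784 as Setd5+/-. It was 1.52-fold higher (1.49 to 1.55) with no overlap, above counting error but under the 2-fold line. Nes (ENSMUSG00000004891, chr3:87971078-87980451, plus strand) gave 2392, 2383 and 2358 normalized counts as WT and 1859, 1988 and 2005 as Setd5+/-, a 1.22-fold lower value (1.16 to 1.28), also with no overlap. Nestin and vimentin, which assemble into the same filaments in radial glia, thus differed in opposite directions, and the level of Vim per length was 5.17 times that of Nes in WT and 9.59 times in Setd5+/-.

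**Figure D2:**
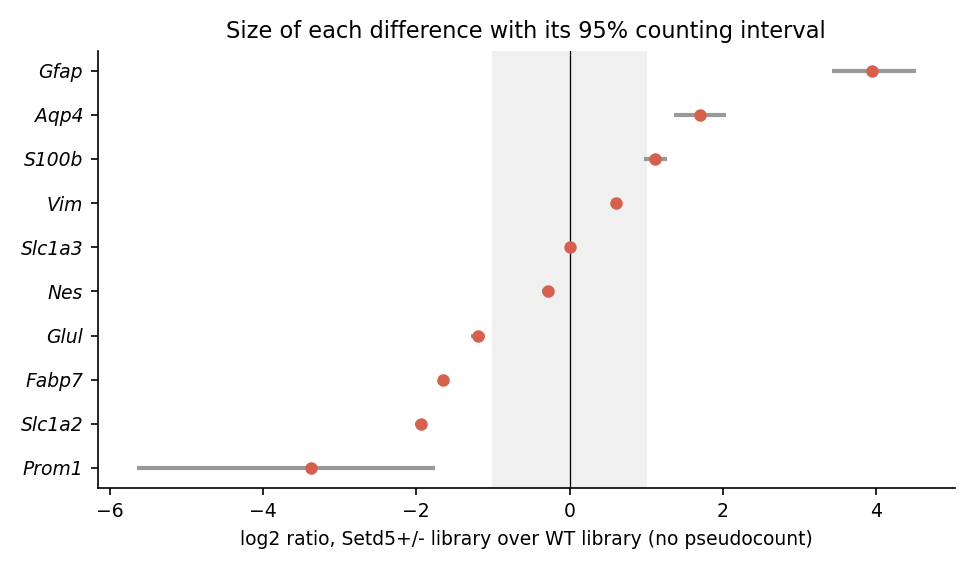
Log2 ratio of the Setd5+/- library over the WT library for each member, without a pseudocount, with bars for the 95% counting interval and a grey band for differences under 2-fold. Gfap stands at 3.94 and Prom1 at -3.37 with the widest bar, and Vim, Slc1a3 and Nes lie inside the band.

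The calls were also counted by other thresholds. At 1.5-fold, 4 members were higher (Vim added), beside 18.5% of all tested genes, and 4 were lower, beside 14.6%. At 4-fold, only Gfap was higher, beside 2.96%, and only Prom1 was lower, beside 1.86%. By the counting interval alone, 4 members were higher, beside 32.0%, and 5 were lower, with Nes added, beside 32.4%. The counting interval covers reads only and no difference between cultures or clones.

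Levels of different genes were compared per length, as normalized counts per kilobase of annotated exon. In the WT library the order from high to low was Fabp7 (28812), Slc1a3 (2458), Vim (1918), Glul (642), Nes (371), Slc1a2 (356), S100b (229), Aqp4 (9.26), Gfap (4.06) and Prom1 (3.42). The counting intervals of Nes and Slc1a2 overlapped there, as did those of Gfap and Prom1, and such an overlap does not show equal levels. In the Setd5+/- library the order was Fabp7 (9192), Vim (2914), Slc1a3 (2474), S100b (496), Nes (304), Glul (280), Slc1a2 (93.3), Gfap (62.4), Aqp4 (29.9) and Prom1 (0.332). Only the counting intervals of Nes and Glul overlapped in this library. Among 16255 genes with a length, Fabp7 ranked 7th in WT and 17th in Setd5+/-, and Slc1a3 ranked 100th and 90th. Gfap ranked 15417th in WT and 7852nd in Setd5+/-, so that it was among the lowest tested genes in WT. Annotated exons include those of isoforms that the cells may not use, which lowers a level per length.

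**Figure D3:**
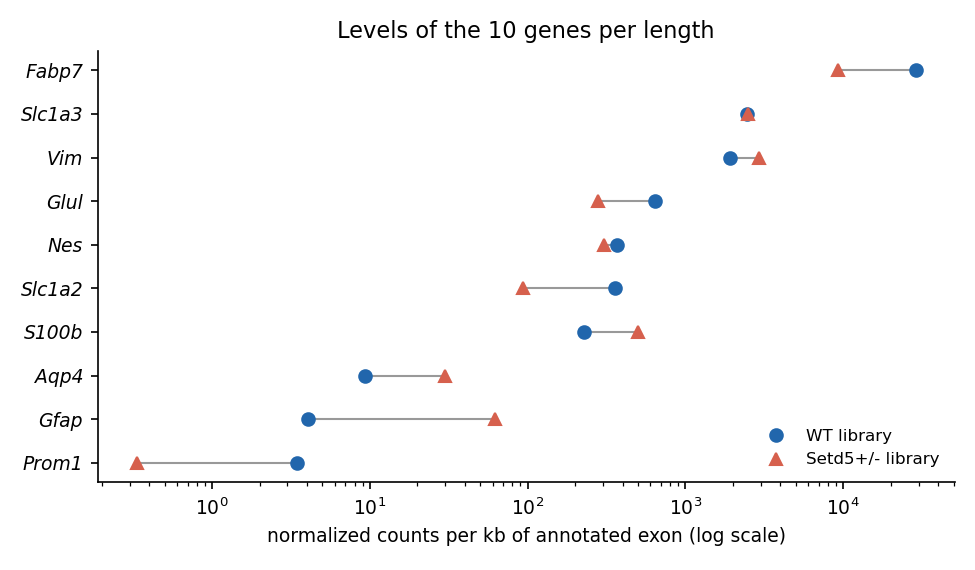
Normalized counts per kilobase of annotated exon (log axis) of the 10 genes in the WT library (circles) and the Setd5+/- library (triangles), ordered by the WT level. Fabp7 was the highest in both libraries, and Gfap moved from 4.06 to 62.4.

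Other genes of the same cells were read from lists that were also written with earlier results known. The counts past 2-fold in each list below stand beside 10.2% higher and 6.13% lower over all tested genes. Some called genes had under 10 normalized counts in one library and passed the filter only through the other, so they had to differ. In the lists of glial genes and their families these were Serpina3n, Fbln5, Ina, S100a4, S100a11, Clcf1, Neurog2 and Atf3, and among the markers of other cell types they were Snap25, Syt1, Neurog2, Sox10, Mbp, Cldn11, Kdr and Rsph1. Of 30 other radial glia and neural stem cell genes, 28 passed the filter, of which 3 were higher past 2-fold (Tnc, Pdpn, Gli3) and 2 were lower (Hes1, Id4), with a median log2 difference of -0.18. Tnc, the matrix protein tenascin C, went from 2203 normalized counts (WT) to 32064 (Setd5+/-), a 14.6-fold higher level (14.1 to 15.0). Id4, an inhibitor of bHLH factors, was 2.95-fold lower (2.35 to 3.72). Veph1 had no read. The stem cell factors Sox2 (3119 and 2732), Sox9 (1451 and 1326) and Pax6 (402 and 530 normalized counts in WT and Setd5+/-) all stayed under 2-fold.

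Of 46 other astrocyte genes, 42 passed the filter, and they stood on both sides. Among them 8 were higher past 2-fold, beside 10.2% of all tested genes, and 12 were lower, beside 6.13%. The median log2 difference was -0.09. Sparc, a secreted matrix protein, was 10.2-fold higher (9.71 to 10.8). Ntsr2, a neurotensin receptor of astrocytes, was 22.9-fold lower (13.3 to 42.8), from 236 to 10.3 normalized counts. Aldh1l1, an enzyme of folate metabolism used as an astrocyte mark, was among the lower ones and went from 380 normalized counts to 147.

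Of 26 genes known to be induced in reactive astrocytes, 15 passed the filter. Among these, 12 were higher past 2-fold, beside 10.2% of all tested genes, and 0 were lower, beside 6.13%. Their median log2 difference was 1.79, and the 3 under 2-fold were Stat3, Socs3 and H2-D1. Serpina3n and Fbln5 reached 10 normalized counts only in the Setd5+/- library, through which they passed the filter. Emp1, a membrane protein, gave 13.3, 10.8 and 16.6 normalized counts as WT and 2578, 2400 and 2438 as Setd5+/-, a 183-fold higher level (124 to 282). Cd44, a hyaluronan receptor, went from 197 normalized counts to 730. Lcn2 and Steap4, which are widely used for this state, had no read, and Cxcl10 and Aspg, under the filter, had reads in WT only. With at least 50 normalized counts asked for, 5 of 7 genes of this list were higher and 0 were lower. Beside them, 1032 of 12570 tested genes were higher and 588 were lower. Fbln5 (3.31 in WT and 206 in Setd5+/-) and Emp1 (13.5 and 2472) reached 50 only through the Setd5+/- library, so they had to differ. The other higher genes, Cd44, Cp and Cd109, were above 50 in both libraries.

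The families of the members were also compared. Of 14 other intermediate filament genes, 5 passed the filter, with 0 higher and 1 lower past 2-fold. This was Ina, a neuronal filament protein, at 20.0-fold lower (9.11 to 54.1). Lmna, a nuclear lamin, had the largest rise of the list at 1.98-fold (1.68 to 2.34). Krt7, Krt8, Krt18 and Krt19, keratins of epithelia, had no read. Of 11 other S100, FABP and prominin genes, 7 passed, with 2 higher (S100a10, S100a11) and 2 lower (S100a4, Fabp5). Fabp5, which is also present in neural stem cells, was 5.99-fold lower (4.68 to 7.78), and S100a11 was 4.36-fold higher (2.41 to 8.32).

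Of 19 other genes for the handling of glutamate and glutamine, 18 passed the filter. Among these, 6 were higher (Slc1a4, Slc38a1, Slc38a2, Slc7a11, Slc3a2, Asns), beside 10.2% of all tested genes. Another 2 were lower (Got1, Gad1), beside 6.13%, and the median was 0.53. Slc7a11, the cystine and glutamate exchanger, went from 99.7 normalized counts to 1592, and the counting interval of its ratio was 13.7 to 18.7. Gad1, which makes GABA from glutamate, was 7.78-fold lower (6.48 to 9.42). Of 14 other aquaporin and astrocyte end-foot genes, 11 passed, with Utrn and Lamc1 higher and Sntb1 lower. Lamc1, a laminin chain, was 5.51-fold higher (5.27 to 5.76) and lies on chromosome 1, and the syntrophin Sntb1 was 5.44-fold lower (3.30 to 9.52).

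Genes that regulate the onset of astrocyte formation, such as JAK-STAT, BMP, Notch and NFI components, mostly stayed under 2-fold. Of 42, 35 passed the filter. Among these, 7 were higher (Il6st, Clcf1, Notch1, Notch2, Zbtb20, Atf3, Runx2), beside 10.2% of all tested genes. A further 1 was lower (Neurog2), beside 6.13%, and the median was 0.28. Clcf1, a cytokine of the CNTF receptor, went from 3.31 normalized counts to 47.3, a ratio of 14.3 (6.26 to 39.6). Neurog2, a proneural factor, had 262 reads in WT and 2 in Setd5+/-, a 91.1-fold lower level with a counting interval of 16.4 to 3278. The regulators Bmp4, Lin28a, Lin28b and Neurog1 had no read.

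**Figure D4:**
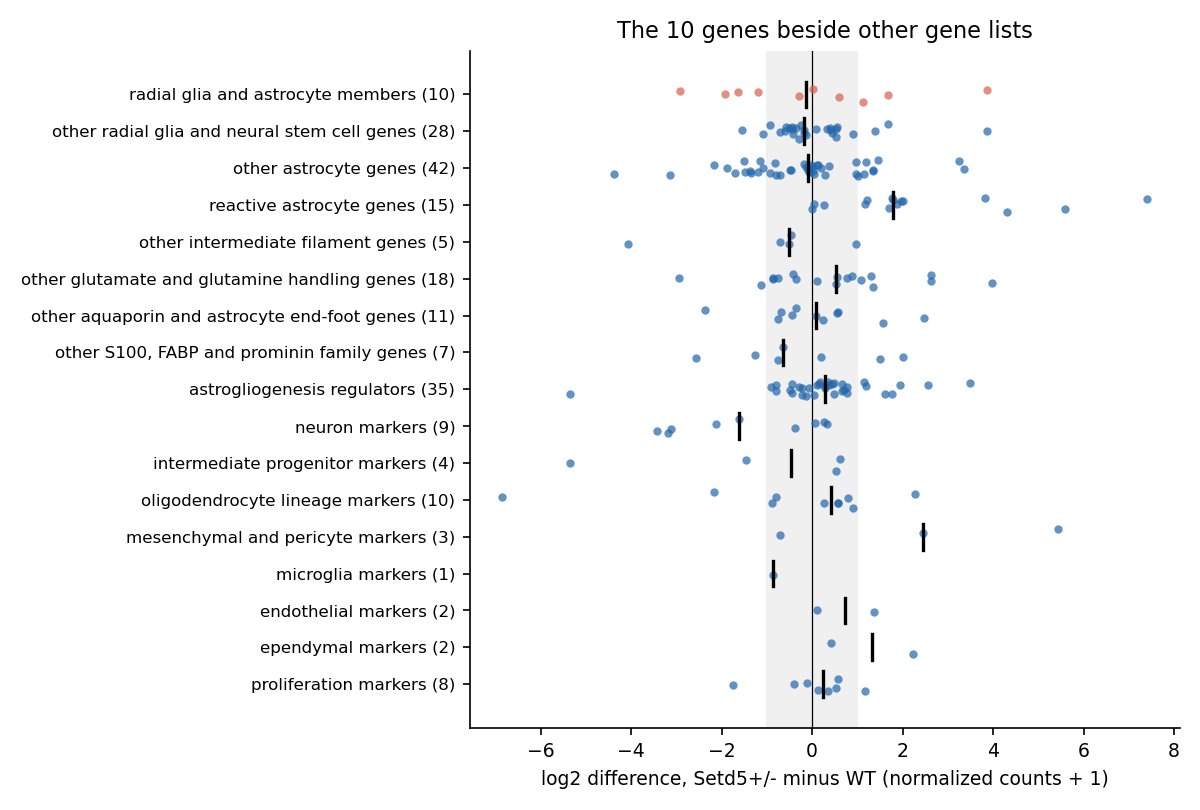
Log2 difference of normalized counts plus 1, Setd5+/- minus WT, for each tested gene (points) of the 10 members and 16 other lists, with a black bar at the median of a list, the number of tested genes in brackets and a grey band under 2-fold. The reactive astrocyte genes had a median of 1.79, while the members had -0.14.

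Markers of other cell types also differed between the libraries, and their part in the values above was not tested. Beside their counts, 10.2% of all tested genes were called higher and 6.13% lower. Of 15 neuron markers, 9 passed the filter, 0 were higher and 5 were lower (Dcx, Snap25, Syt1, Elavl3, Elavl4), with a summed level of 11110 to 11468 normalized counts per WT sample and 12950 to 12991 per Setd5+/- sample. Most of that sum was Map2, at 9983 and 12445. Map2 lies on chromosome 1, where the median log2 difference of tested genes was 0.53. Syt1, a synaptic vesicle protein, had the largest fall of the list at 12.6-fold lower (5.83 to 32.7), and Neurod1 and Neurod6 had no read. Among 6 intermediate progenitor markers, 4 passed and 2 were lower (Neurog2, Elavl2), and Neurog1 had no read. The summed level of this list was 1925 to 1976 in WT and 2567 to 2649 in Setd5+/-. Most of this sum was Btg2, at 1749 and 2538, which also lies on chromosome 1. Insm1 was at a ratio of 1.55 with a counting interval that held 1 (0.989 to 2.42).

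Of 12 oligodendrocyte lineage markers, 10 passed, 1 was higher (Cldn11) and 2 were lower (Sox10, Mbp), and the summed level ran from 42499 to 43351 in WT and from 25998 to 26924 in Setd5+/-. Sox10, a factor of the lineage, had 1080 reads in WT and 4 in Setd5+/-, and Cldn11 was 5.43-fold higher (2.77 to 11.5). Of 12 mesenchymal and pericyte markers, 3 passed and 2 were higher (Thy1, Fn1), with a summed level of 325 to 402 in WT and 4291 to 4444 in Setd5+/-. Most of that sum was Thy1 (243 in WT and 1333 in Setd5+/-) and Fn1 (67.9 and 2991). Tagln, the other gene to pass, was 1.68-fold lower with a counting interval that held 1 (0.978 to 2.97). Acta2, under the filter, had 28 reads in WT and 2 in Setd5+/-. Fn1, fibronectin, was 44.0-fold higher (36.9 to 53.0) and lies on chromosome 1, Lum and Twist1 had no read, and the collagen genes Col1a2 and Col3a1 were under the filter.

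Of 8 microglia markers, 1 passed (Csf1r) and was not called, the summed level was 78.6 to 119 in WT and 51.2 to 70.3 in Setd5+/-, and Cx3cr1, Ptprc, Itgam and C1qa had no read. Of 7 endothelial markers, 2 passed and Kdr was higher, with sums of 17.4 to 29.0 and 20.3 to 45.3. Of 6 ependymal markers, 2 passed and Rsph1 was higher, with sums of 179 to 206 and 270 to 298, and Tmem212 had no read. Of 8 proliferation markers, all passed, with Aurka higher, Pcna lower and sums of 5808 to 5921 and 7230 to 7457. Aurka, a mitotic kinase, was 2.26-fold higher (2.00 to 2.55), and Pcna, the sliding clamp of DNA replication, was 3.45-fold lower (2.43 to 5.02).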

How the data were processed

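RNA-seq libraries (TruSeq RNA, Illumina HiSeq, paired end) of 3 WT and 3 Setd5+/- NSC samples were used. Per the paper and the submitters' processing notes, the authors trimmed reads with Trimmomatic, aligned them to mm10 with Bowtie2 and normalized with DESeq2. The program that counted reads is not given in the sources used here. The deposited values are counts divided by the size factor, and their decimal points were lost. The point of each value was placed where it gave whole reads, of 0.829, 0.827 and 0.828 normalized counts each in WT and 1.19 in Setd5+/-. The deposited mean matched in all 52438 genes restored and settled the place in 1116 of them, and 672 genes had no values. The deposited table also holds the authors' log2 fold changes and p-values, which were not used.

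Samples of a genotype were parts of 1 library, so no test and no p-value is given. Read totals per sample were 9995980 to 10004948 in WT and 7143309 to 7146147 in Setd5+/-. The variance of a gene between samples of a genotype was 1.95 (WT) and 1.93 (Setd5+/-) times its mean on average, and 67.1% of counts from 1 to 99 were even, from which it was inferred, since no source says so, that mostly both reads of a pair were counted. Ratios of normalized counts were given 95% counting intervals (Clopper-Pearson on reads divided by 1.94, scipy 1.17.1), which cover counting error only. These steps were checked on simulated data. Log2 differences used a pseudocount of 1. Positions and exon lengths are from GENCODE M21 (GRCm38, the same as mm10), promoters are from RefSeq, and near-identical copies were searched with BLAST 2.17.0 (at least 95% identity over 200 bases).

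The members and lists were chosen with earlier results of these data known. All members, Setd5 and the largest rise and fall of each list were named by rule, and other genes were named after their values were seen. Some genes are not reported here.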

Additional observations from a re-analysis of the deposited data

How the results depend on the processing

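With n = 1 library per genotype, depth limits the counting error alone. The counts of 3 members higher and 4 lower held under every scaling and pseudocount tried and with no filter. A filter of at least 50 normalized counts left 3 and 3, beside 1032 higher and 588 lower of 12570 tested genes. Gfap (17.1 in WT and 263 in Setd5+/-) passed that filter only through its Setd5+/- level, so it had to differ. Leaving out each sample in turn gave 3 to 3 higher and 4 to 4 lower. At a 4-fold threshold the counts of members were 1 and 1. Leaving out a sample only takes away reads of 1 library, so it does not test replicates. The members' median log2 difference of -0.14 was -0.18 scaled by total reads, -0.22 by the upper quartile and 0.0092 with at least 50 normalized counts, which drops Prom1, and it ran from -0.15 to -0.12 when each sample was left out in turn. The Setd5 difference of -0.37 was -0.46 by the upper quartile and ran from -0.42 to -0.34 without each sample in turn. The 4 scalings moved Gfap between 3.79 and 3.89 and Prom1 between -2.99 and -2.90 on the log2 scale. Prom1 ranged from -3.54 to -2.00 over all settings. Upper quartile scaling shifted the median of all tested genes to -0.10 and the share of calls that were higher from 62.6% to 55.2%. At 1.5-fold 3017 genes were called higher and 2375 lower, at 4-fold 481 and 302, and by the interval alone 5213 and 5263, in place of 1666 and 997. The cause was not tested. No paired analysis was possible because the 3 samples of a genotype are parts of 1 library and no test was run.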
